A study of Mus musculus with 12 samples.

Results

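Dual-specificity phosphatases of the MAP kinase (MAPK) family, Sprouty proteins and Spred proteins were described in MLL-AF9 cells, a mouse acute myeloid leukaemia driven by a fusion of the Mll gene, after treatment directed at a floxed Riok2 gene. The 10 genes were chosen by symbol, as inhibitors of ERK and related MAPK signalling, and all 10 were found among the 24221 genes of the authors' deposited table. They are 6 phosphatase genes (Dusp1, Dusp2, Dusp4, Dusp5, Dusp6 and Dusp10), the Sprouty genes Spry1 and Spry2, and the Spred genes Spred1 and Spred2. The study has 12 C57BL/6 samples in 4 groups of 3. The comparison here is between Riok2fl/fl MLL-AF9 cells given hydroxytamoxifen (OHT) and the same cells given its solvent ethanol (EtOH), both for 72 h, so that both groups carry the fusion and the floxed alleles. OHT switches on tamoxifen-dependent Cre recombinases. The labels list no cells given OHT without the floxed alleles. Effects of OHT itself, of Cre and of Riok2 loss therefore cannot be told apart here. None of the sources used here gives the Cre construct, its promoter or whether the cells were 1 clone. The MLL-AF9 cells given DMSO or a RIOK2 inhibitor at 1 µM are not analysed here.

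In the MAPK cascade, receptors load RAS with GTP, RAS recruits RAF kinases, and these activate MEK and then ERK. Active ERK induces genes for its own inhibitors: dual-specificity phosphatases strip the phosphates from the activation loop of ERK, p38 or JNK, Sprouty proteins act between receptors and RAF, and Spred proteins bring the RAS GTPase-activating protein neurofibromin to the membrane. Transcripts of this kind are widely used as readouts of ERK activity, and growth factor receptors of myeloid cells are among the inputs of the pathway.

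The authors' deposited table gives for each gene a base mean (reads scaled by library size, averaged over libraries), a log2 fold change and its error (SE), and DESeq2 Wald p-values adjusted over 13814 genes. It has no values per library, and the whole reads of 6 libraries were recovered for each of the 10 genes from those 3 numbers. For Spred1 these numbers left 2 combinations, and a dispersion trend fitted to other genes chose 1. Normalised reads below are recovered reads divided by the library's size factor. The libraries are called a to c by falling size factor within a side of the comparison (1.88, 1.01 and 0.697 for OHT; 1.11, 0.87 and 0.783 for EtOH). They cannot be matched to the replicate numbers of the labels, so no group mean is given. They were refitted under the same kind of model only to leave out the prior or 1 library. Riok2, the targeted gene, had 104, 84.9 and 125 normalised reads in OHT libraries a, b and c, and 1552, 1190 and 1219 in EtOH libraries a, b and c. Its log2 fold change in the authors' deposited table was -3.60 ± 0.20 (SE), DESeq2 adjusted p = 7.81e-69. Which side is OHT is read from this fall, since the table does not name it, so Riok2 is no independent check of the labels. Base means summed to 20307732 normalised reads in the authors' deposited table. The labels do not say that replicates came from separate cultures, so p-values cover only the spread among these libraries, and that spread may be technical.

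The defining markers of leukaemic myeloid cells were abundant, and their levels differed between the groups. Of 8 such genes tested in the authors' deposited table, 3 were higher and 4 lower in OHT, from the integrin gene Itgam (log2 fold change 2.44 ± 0.12 SE, base mean 19357) to the granule peroxidase gene Mpo (-2.37 ± 0.23, base mean 34343). In bulk RNA, fewer cells of a type and less RNA per cell cannot be told apart. Among 5 T and NK cell markers, Cd3e and Cd8a were at 0, and the other 3 summed to between 0 and 1.28 normalised reads per EtOH library and between 1.98 and 15.8 per OHT library. The B cell markers Ms4a1 and Pax5 were at 0, while Cd79a was higher at a base mean of 9.49 in the authors' deposited table. None of the mast cell and basophil markers (3 of 4 tested) passed the threshold in the authors' deposited table. The mast cell protease gene Cpa3 (base mean 13267) had a log2 fold change of 0.64 ± 0.62 (SE) there. Fcer1a (base mean 1298) had 0.70 ± 0.64 and Ms4a2 (base mean 786) had 1.47 ± 0.74. Mcpt8 (base mean 3144), which was not tested, had 0.50 ± 0.71. These SEs are wide beside a median of 0.177 at base means from 100 up, so not passing does not show equal levels. Of 5 fibroblast and endothelial markers, 3 were tested and 1, Col1a1, was higher in the authors' deposited table, and the 4 markers with recovered reads summed to 12.6 to 25.2 normalised reads per EtOH library and 34.4 to 105 per OHT library. The fifth, the endothelial and leukocyte adhesion gene Pecam1, held most of the level of this list (base mean 1579; log2 fold change 0.24 ± 0.57 SE, not past the threshold) in the authors' deposited table. The erythroid globin gene Hbb-bt was at 0, and Epor, the erythropoietin receptor gene, had 2.30 to 6.38 normalised reads per EtOH library and 3.95 to 10.04 per OHT library. The megakaryocyte markers Itga2b (base mean 1053, log2 fold change 1.19 ± 0.74 SE) and Pf4 (base mean 101, 1.24 ± 0.73) were well detected in the authors' deposited table, and neither passed the threshold. The part of these markers in the results below was not tested.

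Of the 10 genes, 6 passed an adjusted p of 0.05 in the authors' deposited table (60%), beside 48.9% of all genes tested. Dusp1, Dusp4, Dusp5 and Dusp6 were higher in OHT (4 of 10; 25.5% of all genes were higher), and Dusp2 and Spry2 were lower (2 of 10; 23.4% of all genes were lower). The share that passed is near that of the transcriptome, so the count is no result about the 10 genes as a set. Their median log2 fold change was 0.41 in the authors' deposited table, beside 0.05 for all genes tested. That median lies between Spred1 (0.410) and Dusp10 (0.419), neither past the threshold, so no shift of the set is read from it. Within the phosphatases 4 of 6 were higher and 1 lower; within the Sprouty and Spred genes 0 of 4 were higher and 1 lower. In 6 genes (Dusp1, Dusp2, Dusp5, Dusp6, Spry1 and Spry2) no OHT library overlapped an EtOH library, and in the other 4 the sides overlapped. Reads were recovered for chosen genes only, so this count has no share of all genes beside it. It is no result about the 10 genes as a set. The genes that passed and the genes with libraries apart are not the same: Dusp4 passed the test with overlapping libraries, and Spry1 did not pass with libraries apart.

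**Figure D1:**
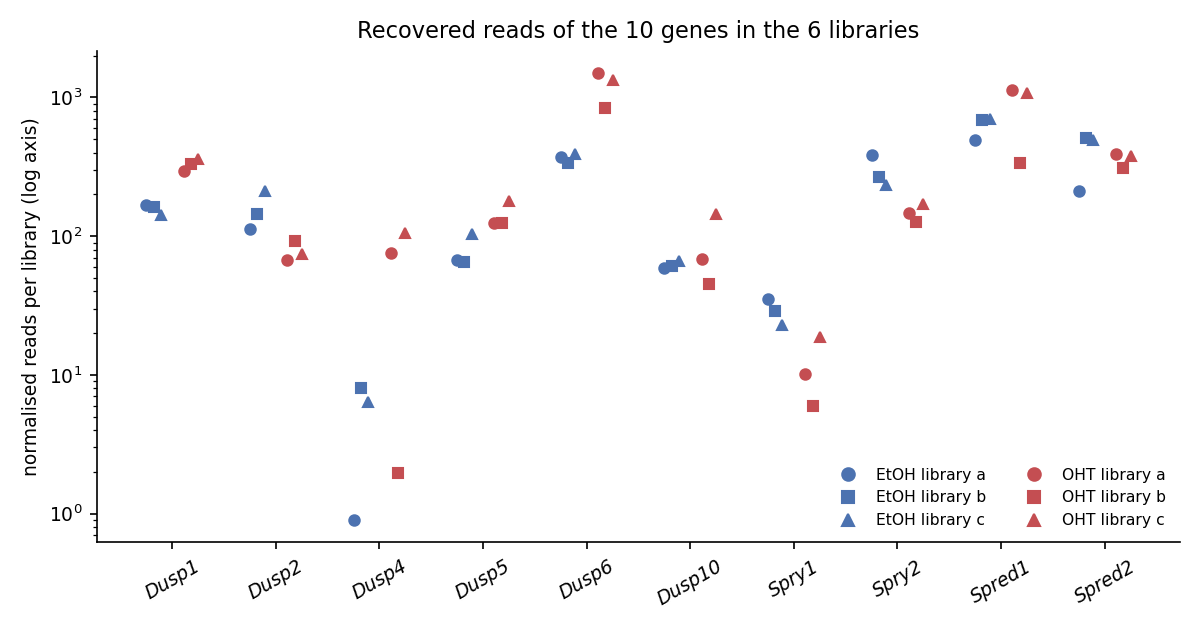
Normalised reads (log axis) of the 10 genes in each recovered library, with EtOH in blue, OHT in red and 1 symbol per library letter. The red points of Dusp6 lie between 845 and 1498, above all blue points (335 to 388), and 1 red point of Dusp4, at 1.98, lies among the blue ones.

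Dusp1 is the first of the nuclear, inducible phosphatases, an immediate early gene whose product acts on p38, JNK and ERK. The gene (ENSMUSG00000024190.7) lies on GRCm38 chromosome 17, minus strand, at chr17:26505590-26562128. The sequence upstream of its short transcripts is shown because, of the 9 genes in the RefSeq promoter table (GRCm38.p6), it is the one with a full cAMP response element. The run below covers chr17:26508520-26508722 (minus strand, 203 bases, stopping before the first exon of those transcripts). Capitals mark the cAMP response element TGACGTCA, which starts 143 bases before the RefSeq start site, and a separate half-site TGACG that starts 191 bases before it.

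Dusp1 promoter: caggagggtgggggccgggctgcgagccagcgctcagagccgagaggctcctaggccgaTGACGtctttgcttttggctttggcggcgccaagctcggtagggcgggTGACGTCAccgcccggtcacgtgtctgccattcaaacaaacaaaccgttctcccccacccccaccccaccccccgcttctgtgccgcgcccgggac

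The full element was found in 1.79% of 32851 promoter windows (250 bases before to 50 after the start, both strands). The half-site, which the full element contains, was in 20.8% of them, and in 4 of the 9 genes (Dusp1, Dusp2, Dusp5 and Spred2). A match of letters is a description and shows no binding. The table has no entry for Dusp4.

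Dusp1 transcripts also carry the nonamer TTATTTATT, a core AU-rich word of short-lived messages, in the 3′ untranslated region. It was present there in 1 of the 10 genes, Dusp1, and in 7.55% of 20947 coding genes (longest coding transcript, GENCODE M21). The nonamer starts 103 and 392 bases after the stop codon, at chr17:26506161-26506185 and chr17:26505872-26505896 (minus strand), shown with 8 bases on each side and the nonamer in capitals.

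Dusp1 site at 103: gctggtccTTATTTATTtaacaccc
Dusp1 site at 392: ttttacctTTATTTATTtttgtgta

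The shorter word ATTTA was in all 10 genes and in 64.6% of coding genes. Its density was highest in Dusp2 (6.88 per kb of 3′ untranslated region) and Dusp1 (5.80 per kb), beside a median of 1.22 per kb. Dusp1 and Dusp2 moved in opposite directions, as described next.

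Dusp1 was about 2-fold higher in OHT. It had 294, 330 and 363 normalised reads in OHT libraries a, b and c, and 167, 162 and 143 in EtOH libraries a, b and c. All 3 OHT libraries lay above all 3 EtOH libraries, and the spread within each side was narrow. In the authors' deposited table its log2 fold change was 1.04 ± 0.20 (SE), a 2.05-fold difference (95% interval 1.57 to 2.68; DESeq2 adjusted p = 7.32e-07).

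Dusp2 encodes a nuclear phosphatase of blood cells that acts on ERK and p38 (ENSMUSG00000027368.6, chr2:127336159-127338376, plus strand). It had 67.7, 91.9 and 74.6 normalised reads in OHT libraries a, b and c, and 113, 144 and 212 in EtOH libraries a, b and c. It was lower in every OHT library, with EtOH library c well above the others. The log2 fold change in the authors' deposited table was -0.96 ± 0.31 (SE, DESeq2 adjusted p = 0.00596), or 0.516 times the EtOH level (95% interval 0.337 to 0.788). Without EtOH library c the fall was -0.68 and no longer past the threshold.

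Dusp4 encodes a nuclear phosphatase close to Dusp1 in sequence (ENSMUSG00000031530.6, chr8:34807297-34819894, plus strand). Its recovered reads were 141, 2 and 74 in OHT libraries a, b and c and 1, 7 and 5 in EtOH libraries a, b and c, which is 75.1, 1.98 and 106 normalised reads in OHT and 0.90, 8.05 and 6.38 in EtOH. OHT libraries a and c were far above EtOH, while OHT library b lay within the EtOH range. Its log2 fold change in the authors' deposited table was 2.30 ± 0.71 (SE, DESeq2 adjusted p = 0.00329), the highest of the 10. The deposited folds are pulled towards 0 by a prior. From the recovered reads with no prior the difference was 12.1-fold, beside 4.92-fold (95% interval 1.88 to 12.9) in the authors' deposited table.

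Dusp5 encodes a nuclear phosphatase specific for ERK (ENSMUSG00000034765.6, chr19:53529109-53542431, plus strand). Its upstream sequence is shown because it is the one of the 9 with serum response elements, the sites through which ERK-driven ternary complex factors act on immediate early genes. The run covers chr19:53528895-53529108 (plus strand, 214 bases). The first stretch of capitals holds a pair of adjoining serum response elements, which start 82 and 72 bases before the RefSeq start site, and the second, on the opposite strand, the half-site TGACG.

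Dusp5 promoter: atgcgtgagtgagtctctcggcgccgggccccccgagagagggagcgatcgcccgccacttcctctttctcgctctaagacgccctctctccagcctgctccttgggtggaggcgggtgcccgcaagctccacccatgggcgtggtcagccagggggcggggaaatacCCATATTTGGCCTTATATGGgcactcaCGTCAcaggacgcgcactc

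Serum response elements were in 1.63% of the 32851 windows. The ETS word GGAAGT was in Dusp5 and Spred2 and in 23.8% of windows. AP-1 words (TGANTCA, 7.81% of windows) and NF-kB sites (4.51%) were in none of the 9.

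Dusp5 had 125, 125 and 179 normalised reads in OHT libraries a, b and c, and 67.5, 65.5 and 103 in EtOH libraries a, b and c. Library c was the highest on both sides, and the sides did not overlap. The log2 fold change in the authors' deposited table was 0.82 ± 0.30 (SE), or 1.77-fold (95% interval 1.17 to 2.67; DESeq2 adjusted p = 0.0159). It was not past the threshold without OHT library c (0.64), EtOH library a (0.72) or EtOH library b (0.71). An antisense gene, AC137853.2, shares 547 of the 2473 exon bases of Dusp5, and no source used here states whether reads were counted by strand, so the source of those reads is uncertain.

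Dusp6, the cytoplasmic phosphatase specific for ERK and a standard transcript of ERK feedback, had the highest base mean per length of the 10, over both sides together, and the lowest adjusted p. The gene (ENSMUSG00000019960.8) lies at chr10:99263231-99267489, plus strand. It had 1498, 845 and 1335 normalised reads in OHT libraries a, b and c, and 372, 335 and 388 in EtOH libraries a, b and c. All OHT libraries were above all EtOH libraries, with OHT library b the lowest of its side, and the EtOH libraries close together. In the authors' deposited table the log2 fold change was 1.71 ± 0.23 (SE), a 3.27-fold difference (95% interval 2.40 to 4.44; DESeq2 adjusted p = 6.41e-13).

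Dusp10 encodes a phosphatase that prefers p38 and JNK over ERK (ENSMUSG00000039384.8, chr1:184013302-184075636, plus strand). It had 68.8, 45.4 and 145 normalised reads in OHT libraries a, b and c, and 59.4, 60.9 and 66.4 in EtOH libraries a, b and c. The EtOH libraries were nearly level, and the OHT libraries lay on both sides of them. Its log2 fold change in the authors' deposited table was 0.42 ± 0.42 (SE, 95% interval -0.40 to 1.24, DESeq2 adjusted p = 0.427). Without OHT library c it was -0.10.

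Both Sprouty genes were lower in every OHT library. Spry2 encodes a membrane-associated inhibitor of signalling from receptors to RAS and RAF (ENSMUSG00000022114.5, chr14:105891947-105896819, minus strand). It had 148, 127 and 169 normalised reads in OHT libraries a, b and c, and 386, 268 and 235 in EtOH libraries a, b and c. The highest OHT library was below the lowest EtOH library. In the authors' deposited table the log2 fold change was -0.98 ± 0.26 (SE, DESeq2 adjusted p = 0.000475), or 0.508 times the EtOH level (95% interval 0.359 to 0.719).

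Spry1, its paralog (ENSMUSG00000037211.12, chr3:37639947-37644598, plus strand), had the lowest base mean of the 10 over both sides together, although in EtOH every Dusp4 library was lower. Its recovered reads were 19, 6 and 13 in OHT libraries a, b and c and 39, 25 and 18 in EtOH libraries a, b and c, which is 10.1, 5.93 and 18.6 normalised reads in OHT and 35.1, 28.7 and 23.0 in EtOH. The sides did not overlap, but OHT library c and EtOH library c were close. The log2 fold change in the authors' deposited table was -1.16 ± 0.53 (SE, DESeq2 adjusted p = 0.0582), which misses the threshold. It passed when folds were centred on the median of all genes (adjusted p = 0.0468) or on summed levels (0.0423), and without OHT library c (-1.48). A gene on the opposite strand, Gm42922, shares 577 of 2773 exon bases of Spry1, so its reads are uncertain too.

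Neither Spred gene passed the threshold. Spred1 encodes an inhibitor of RAS activation that binds neurofibromin (ENSMUSG00000027351.14, chr2:117121374-117182279, plus strand). It had 1127, 339 and 1083 normalised reads in OHT libraries a, b and c, and 497, 686 and 701 in EtOH libraries a, b and c. OHT libraries a and c were above all EtOH libraries and OHT library b was below them all. Its log2 fold change in the authors' deposited table was 0.41 ± 0.36 (SE, 95% interval -0.29 to 1.11, DESeq2 adjusted p = 0.353), and without OHT library b it was 0.76, still not past the threshold.

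Spred2, its paralog (ENSMUSG00000045671.17, chr11:19924375-20024026, plus strand), had 392, 309 and 380 normalised reads in OHT libraries a, b and c, and 213, 510 and 493 in EtOH libraries a, b and c. EtOH library a was the lowest of all 6 and the other EtOH libraries were the highest. The log2 fold change in the authors' deposited table was -0.16 ± 0.31 (SE, 95% interval -0.76 to 0.44, DESeq2 adjusted p = 0.694), and 0.033 without EtOH library b. The authors' deposited table gave Nf1, which encodes neurofibromin, the partner of both Spred proteins, a log2 fold change of 0.11 (adjusted p = 0.649).

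**Figure D2:**
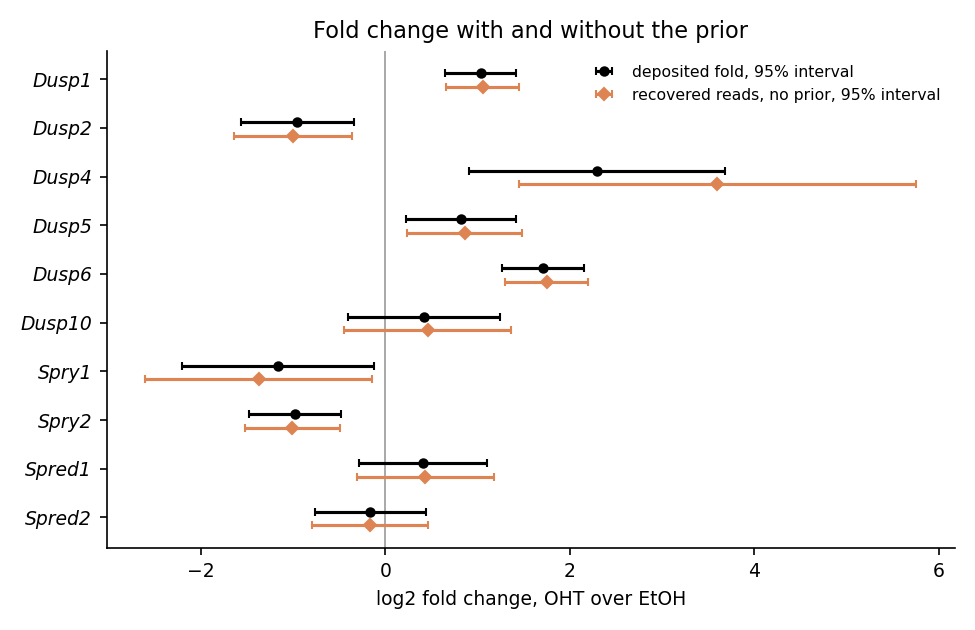
Log2 fold change of OHT over EtOH with its 95% interval, as deposited (black) and from the recovered reads with no prior (orange). The points are close for most genes, and that of Dusp4 moves from 2.30 to 3.60.

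OHT library b was the lowest of its side in 7 of the 10 genes (Dusp4, Dusp6, Dusp10, Spry1, Spry2, Spred1 and Spred2), and OHT library c in 0 of 10. OHT library b had the highest Col1a1 of the 6 (101 normalised reads, beside 39.97 and 22.9 in OHT libraries a and c and 11.5 to 22.5 in EtOH). OHT library c had the highest sum of T and NK cell markers, 15.8 normalised reads from 11 reads. Reads were recovered for chosen genes only, so how often a library is lowest over all genes is not known. A link between these markers and the 10 genes was not tested. When each library was left out in turn, Dusp1, Dusp4, Dusp6 and Spry2 passed in all 6 fits, at an unadjusted p of at most 0.0244, which is where the adjusted p reaches 0.05. Dusp2 passed in 5, Dusp5 in 3, Spry1 in 1 and the other 3 genes in 0. Only the 10 genes were refitted, so these counts have no share of all genes beside them. The fits kept the dispersion from all 6 libraries. Dusp4 passed although OHT library b (1.98 normalised reads) lay within its EtOH range (0.90 to 8.05), so passing does not mean that its libraries were apart.

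**Figure D3:**
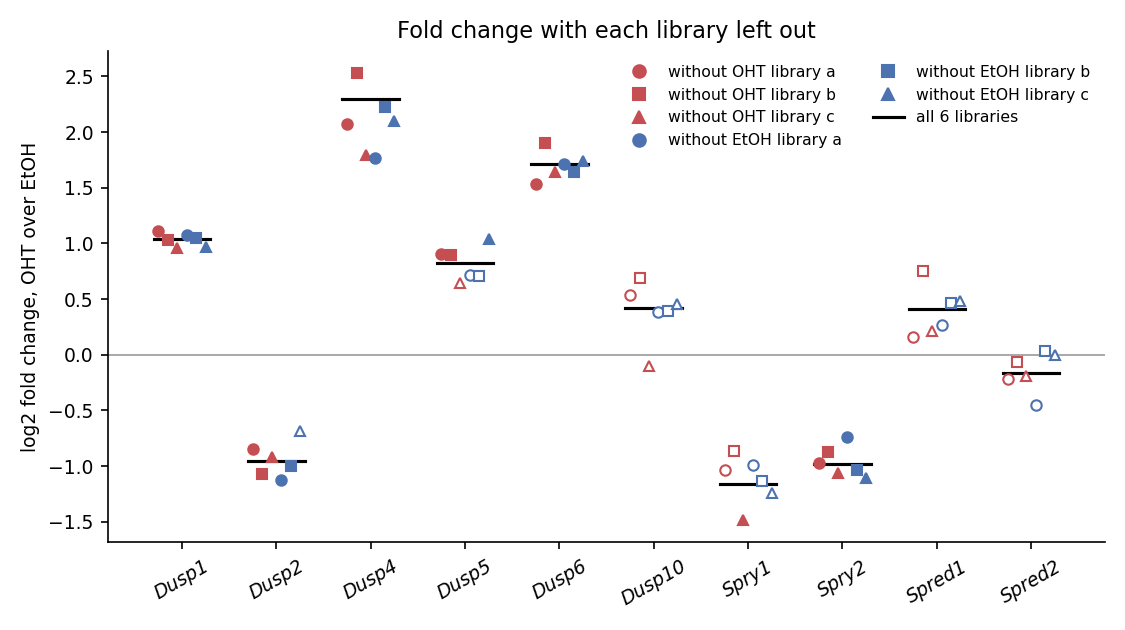
Log2 fold change of each gene with 1 of the 6 recovered libraries left out (red, an OHT library; blue, an EtOH library; filled where past the threshold) and with all 6 (black line). Dusp6 stays between 1.53 and 1.90 and Dusp1 between 0.96 and 1.11, while Dusp10 and Spred2 fall on both sides of 0.

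Levels per length over both sides together, as base mean per kb of the longest coding transcript, put Dusp6 first (285), then Spred1 (123), Dusp1 (122), Spry2 (106), Spred2 (86.1), Dusp2 (72.5), Dusp5 (44.9), Dusp10 (26.6), Dusp4 (12.1) and Spry1 (7.30). Dusp6 was above the other 9 within OHT, where its lowest library (302 per kb) exceeded the highest Spred1 library (187 per kb). Within EtOH its libraries, at 120 to 139 per kb, overlapped those of Spry2 (113 to 185 per kb) and Dusp2 (70.1 to 131 per kb). Spred1 (82.6 to 116 per kb) and Spred2 (47.9 to 115 per kb) overlapped each other within EtOH. At the low end the order also differed by side: in EtOH every Dusp4 library (0.33 to 2.94 per kb) was below every Spry1 library (8.29 to 12.7 per kb), and in OHT Dusp4, at 0.72 to 38.7 per kb, spanned the range of Spry1 (2.14 to 6.72 per kb). Dusp1 and Spry2 changed places between the sides: in EtOH Dusp1 had 71.8 to 84.1 per kb, below every Spry2 library, and in OHT it had 148 to 182 per kb, above every Spry2 library (61.0 to 81.1 per kb).

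Among 5 other genes of the MAPK phosphatase family, the authors' deposited table had 2 higher and 1 lower in OHT, with a median log2 fold change of 0.25. Dusp16, a phosphatase of JNK and p38, had 312, 223 and 237 normalised reads in OHT libraries a, b and c, and 97.2, 101 and 79.1 in EtOH libraries a, b and c. The sides were far apart, and the log2 fold change in the authors' deposited table was 1.44 ± 0.25 (SE, DESeq2 adjusted p = 4.07e-08). Dusp8 (1.49 ± 0.66, DESeq2 adjusted p = 0.0484, base mean 10.3) was higher in the authors' deposited table. Dusp9, a cytoplasmic phosphatase related to Dusp6, was lower there (-0.997 ± 0.36, DESeq2 adjusted p = 0.0135), with 30.6 to 51.6 normalised reads per OHT library and 63.0 to 103 per EtOH library. Of 9 atypical dual-specificity phosphatases tested, 2 were higher (Dusp3, 1.38; Dusp22, 0.97) and 2 lower (Dusp19, -0.98; Dusp12, -0.68) in log2 fold change in the authors' deposited table, with a median of -0.09. Spred3 was higher in the authors' deposited table (1.43 ± 0.51, DESeq2 adjusted p = 0.0122), with 25.6, 37.5 and 47.3 normalised reads in OHT and 15.3, 12.6 and 6.38 in EtOH, and Spry3 was not tested.

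Upstream of the phosphatases, most changes past the threshold were rises. Of 7 growth factor receptor genes of myeloid cells, 4 were higher and 0 lower in the authors' deposited table (median log2 fold change 1.16), led by the CSF1 receptor Csf1r (2.96) and the shared beta chain Csf2rb (1.85). Of 15 adaptors and exchange factors that act upstream of RAS, 9 were higher and 0 lower there (median 0.44). The docking protein Gab1 (2.57) and the RAS exchange factor Rasgrp1 (2.28 ± 0.64 SE, base mean 63.7) led the rises. Of 19 RAS GTPase-activating proteins and other brakes, 7 were higher and 2 lower in the authors' deposited table (median 0.52). The ubiquitin ligase Cbl (1.72) and the adaptor Dok2 (1.64) were higher there. The RAS GTPase-activating protein Rasal1 (-1.96 ± 0.53 SE, base mean 17.7) and the RAF inhibitor Pebp1 (-1.24) were lower. Of 14 genes of the RAS, RAF, MEK and ERK core, 7 were higher and 1 lower in the authors' deposited table (median 0.51), with the RAS relatives Rras (1.48) and Mras (1.42) higher and Hras (-0.50) lower.

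The p38 and JNK cascade, the target of Dusp1, Dusp10 and Dusp16, had 6 genes higher and 2 lower of 15 tested in the authors' deposited table (median 0.18). The kinase genes Map3k8 (2.26) and Mapk13 (2.19), a p38 isoform, were higher there, and the p38 activator Map2k6 (-1.001) and the JNK gene Mapk8 (-0.82) lower. Map3k8 was counted in this list and not in the ERK core. A place in a list does not show which MAPK a kinase acts on in these cells. Of 6 genes of the ERK5 cascade, 4 were higher and 0 lower in the authors' deposited table (median 0.92), led by the transcription factor Mef2a (1.24) and the kinase Map3k2 (1.07).

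Downstream, 6 of 11 transcriptional readouts of ERK tested were higher and 0 lower in the authors' deposited table (median log2 fold change 1.51). Fos (3.57) and cyclin D1, Ccnd1 (3.11), led the rises. The median is the value of 1 gene, Etv1 (SE 0.75, base mean 4.30, DESeq2 adjusted p = 0.0828), which did not pass. Its relatives Etv5 (0.83) and Etv4 (-0.79) did not pass either. Of 11 ternary complex factors and ERK-driven kinases, 7 were higher and 1 lower there (median 0.82): the kinase Rps6ka3 (1.18) and the ETS factor Elk4 (0.95) led the rises, and Srf, which binds serum response elements, fell by 0.51 in the authors' deposited table. Of 6 factors that bind AU-rich elements or act in their decay, 3 were higher and 2 lower in the authors' deposited table (median 0.33). The decay factors Zfp36l1 (2.10) and Zfp36 (1.504) were higher there, and Hnrnpd (-0.79) and the stabilising factor Elavl1 (-0.48) lower. These lists are described by counts and medians, beside 25.5% higher, 23.4% lower and a median of 0.05 over all genes.

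**Figure D4:**
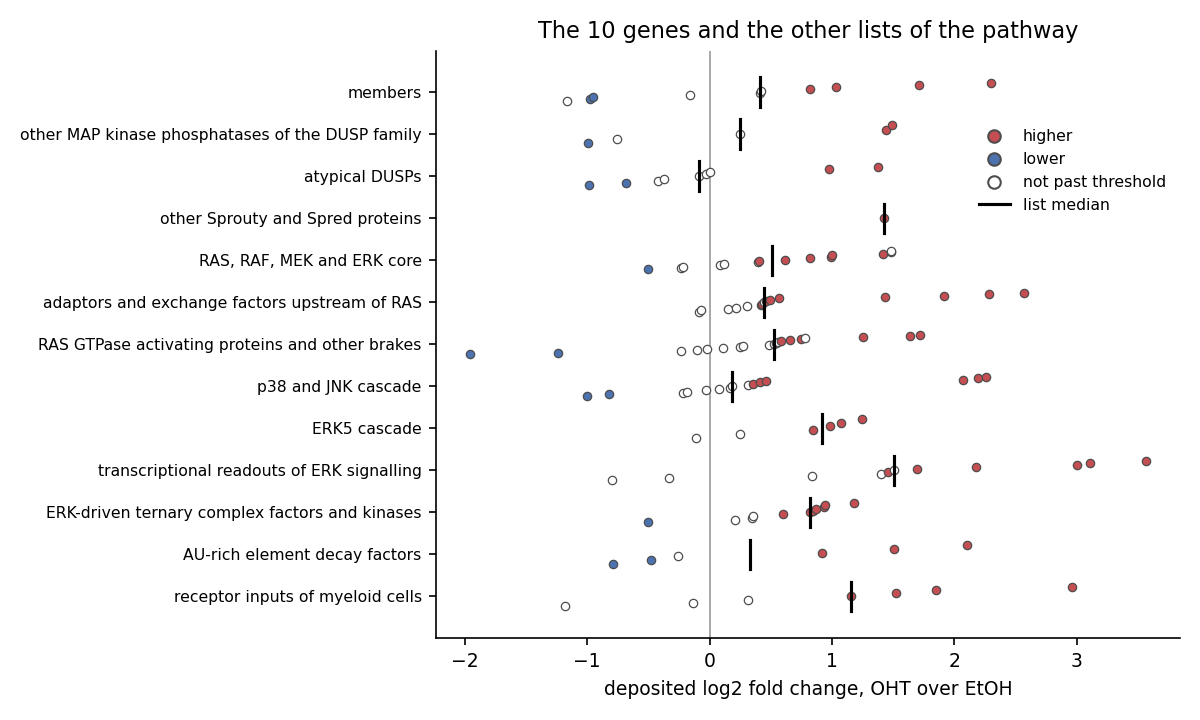
Deposited log2 fold change of OHT over EtOH for each gene tested in the 10 genes (top, members) and in the other lists of the pathway, with red for higher, blue for lower, white for not past the threshold and a black bar at each list's median. The medians run from -0.09 (atypical phosphatases) to 1.51 (readouts of ERK), and the 10 genes spread from -1.16 to 2.30.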

How the data were processed

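RNA sequencing of 12 samples is described in the labels; Trimmomatic 0.38.0, STAR 2.7.2b, HTSeq 0.9.1, DESeq, DESeq2 and genome build mm10 are named in the submitters' processing notes. The annotation and the strand setting were not given in the sources used here. A single comparison table was deposited by the authors, with 0 columns of per-sample values. For each gene the authors deposited a base mean (signal in normalised reads), a log2 fold change and its SE, a Wald score, and p-values before and after adjustment. The deposited score equalled the fold divided by its SE to within 7.56e-08. The adjusted p-values that the authors deposited equalled a Benjamini-Hochberg adjustment to within 2.33e-07.

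Whole reads per library were recovered as the combinations that give the deposited base mean and log2 fold under a negative binomial model with a prior variance of 1.12 (log2 scale), which returned the folds of 299 low genes to within 8.13e-10, and a dispersion that fits the deposited SE and the dispersion trend of 315 genes. Each of the 10 genes had 1 solution within the search. Above a base mean of 35 the search covered only reads within 4 SD of the expected level. From a base mean of 300 it covered 2.5 SD, and reads outside were not searched. For Spred1, 2 combinations met both the fold and the SE, and the fitted dispersion trend left 1. Tested on simulated data for this comparison, at base means of 30.3 to 873, the reads of 32 of 32 genes were recovered and 0 were wrong. Recovery at the lower base mean of Spry1 (20.3) was not tested. In the deposited data the search did not succeed for every gene. For Pf4 (base mean 101), 0 of 8 whole-read combinations met the deposited fold. For Cd79a (base mean 9.49), 2 combinations remained, so no reads per library are given for either gene. Sides were set by the sign of the authors' folds of genes with 1 read. Fits with a library left out kept the recovered dispersion.

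The members and lists were chosen with earlier results of these data known. All 10 genes are named. Of the other lists up to 2 rises and 2 falls are named, those with the largest change past the threshold. Nf1 is named besides as the partner of the Spred proteins, and Etv1, Etv4 and Etv5 to qualify a list median. Gene models are GENCODE M21; promoters are RefSeq (9 of 10 genes matched). No protein sequence was used here, and some marker genes are not reported here. Scripts used Python 3.11.15, numpy 2.4.6, scipy 1.17.1, pandas 2.3.3 and numba 0.67.0.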

Additional observations from a re-analysis of the deposited data

How the results depend on the processing

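Of the counts of genes past the threshold, those that moved by over 1.5 times were the following. When a change of more than 0.5 on the log2 scale was required, 2 genes passed, 2 higher (Dusp1 and Dusp6) and 0 lower, and 2361 of all genes passed in place of 6752. With each recovered library left out, 5 to 6 genes passed, 3 to 4 higher and 1 to 3 lower, the lowest without EtOH library c. The fold changes of Dusp10 (-0.10 to 0.69 over the libraries left out, below 0 without OHT library c) and Spred2 (-0.45 to 0.033, above 0 without EtOH library b) reversed, and neither had passed. Among the values of single genes 121 kept their direction and side of the threshold, 9 lost the threshold, 3 gained it and 2 reversed. Settings that changed only the threshold, the filter or the required change kept the deposited folds. No direction could reverse there, so part of this tally was fixed in advance. The fit with no prior and the fits with a library left out were chosen after seeing the data, and the latter used an unadjusted p of at most 0.0244. The planned removal of the prior with the largest SE as its SD was not run, because the deposited SE falls again at very low base means. No paired analysis was possible because the recovered libraries carry no replicate number, and leaving out replicates by their labels was not run for the same reason. Spry1 and Dusp4 rest on few reads in at least 1 library, which limits their precision.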
